A study of Mus musculus with 7 samples.

Results

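Mrc1+ macrophages are 1 of the 9 clusters into which the study annotated donor myeloid cells of mouse epidermis after bone marrow transplantation (BMT). Members were the cells whose deposited cluster label was Mrc1_Mac, in all 4 donor libraries. There were 3123 of them among 11899 donor cells, and BMT replicate 2 supplied 83.3% of them. The 3 libraries labelled BMT held 403 of 2572, 2602 of 8382 and 45 of 226 cells of this cluster (replicates 1 to 3). The library labelled BMT plus T cells, here called the T cell library (BMT + T in the plots), held 73 of 719. RNA was counted in single droplets with unique molecular identifiers (UMIs), and levels are given as mean UMIs per 10000 UMIs of a cell (CP10K), averaged over the cells of a library and cluster.

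In every group the hosts were male CD45.2 C57BL/6 mice, lethally irradiated according to the design text of the series, and the transplanted marrow came from female CD45.1 C57BL/6 mice. The CD11b+MHCII+ donor cells were sorted from epidermis 3 weeks after transplantation. The donor libraries carry 2 treatment labels, marrow alone or marrow with T cells, while the design text describes CD4 T cells and Matahari T cells, CD8 cells that recognise a male antigen, without separating the libraries. It was therefore not settled whether the libraries labelled BMT had received T cells, and comparisons are between labels. Epidermis of several mice was pooled for sorting, so a library stands for a pool and not for an animal, and the spread between libraries may be partly technical. The age of the mice was not given in the labels. By their short names, BMT replicates 1 and 2 form a pair, and BMT replicate 3 and the T cell library form another, which no label states to be an experiment.

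Monocytes that enter a tissue can become macrophages, which engulf dead cells and debris, degrade them in lysosomes and remodel the matrix around them. In epidermis emptied of its own Langerhans cells, monocytes can also take up a Langerhans cell fate, and macrophages are an alternative state of the same incoming cells. Mrc1, the mannose receptor, Arg1, the arginase that splits arginine into ornithine and urea, and Ccl24, a chemokine that attracts eosinophils, are commonly used as marks of the macrophage state induced by interleukin-4 and interleukin-13. Ms4a7 is a membrane protein of monocyte-derived macrophages, and Pla2g7 is a secreted phospholipase that cleaves platelet-activating factor and oxidised lipids.

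The median depth of the cells was 14259, 4845.5 and 2214 UMIs for BMT replicates 1 to 3, and 11066 for the T cell library. Replicate 3 stood apart, since the median of all its donor cells was 12081.5 UMIs and 22 of its 45 Mrc1+ macrophages had under 2000. Of all 3123 cells, 90 had under 500 genes or over 20% mitochondrial UMIs (63, 10, 14 and 3 by library), although the stated filter of the study would remove such cells. Between 0 and 5 barcodes were shared by any pair of donor libraries. Markers of other cell types were summed in each library. The 8 measured keratinocyte markers, all with at least 1 UMI, summed to 0.988, 2.34, 1.04 and 2.53 CP10K by library, with BMT replicates 1 to 3 before the T cell library, against 0.684, 2.19, 0.561 and 0.754 in the cluster Mono. In the T cell library interferon-stimulated gene (ISG) monocytes had 0.271 and MC, the monocyte-derived cells of the annotation, 0.314. The 8 T and NK cell markers summed to 0.107 to 0.179, the 3 mast cell markers to 0 to 0.0988 with 1 of them at 0 UMIs, the 4 fibroblast markers to 0.0239 to 0.526 and the 3 B cell markers to 0.0163 to 0.793. The 9 neutrophil markers, none at 0 UMIs, summed to 1.87, 7.57, 8.69 and 11.3 by library, against 5.24, 5.59, 2.14 and 1.41 in Mono, so they were higher than in Mono in 3 of 4 libraries and lower in BMT replicate 1. The 7 markers of melanocytes and endothelium summed to 0.0588 to 0.699. Their part in the results below was not tested.

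The start sites of the markers show where the defining transcripts begin. RefSeq promoters of build GRCm38.p6, which the labels also name as GRCm38, run from 250 bases before to 50 bases after a start, and 3 of the 5 markers have an entry. The sequences below, 5′ to 3′, are those of Mrc1 on the plus strand at chr2:14229164-14229463, of the more upstream of the 2 listed starts of Ms4a7 on the minus strand at chr19:11336097-11336396, and of Pla2g7 on the plus strand at chr17:43568201-43568500. Capitals mark a STAT6 site, TTC and GAA with any 4 bases between them, which reads alike on both strands, and GAGGAAGT, a site of the myeloid factor PU.1, which was searched on both strands.
Mrc1: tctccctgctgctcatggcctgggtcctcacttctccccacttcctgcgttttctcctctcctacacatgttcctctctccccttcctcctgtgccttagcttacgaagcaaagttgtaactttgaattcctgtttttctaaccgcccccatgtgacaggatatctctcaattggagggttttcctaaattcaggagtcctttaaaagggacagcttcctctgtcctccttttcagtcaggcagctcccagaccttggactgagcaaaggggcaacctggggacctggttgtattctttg
Ms4a7: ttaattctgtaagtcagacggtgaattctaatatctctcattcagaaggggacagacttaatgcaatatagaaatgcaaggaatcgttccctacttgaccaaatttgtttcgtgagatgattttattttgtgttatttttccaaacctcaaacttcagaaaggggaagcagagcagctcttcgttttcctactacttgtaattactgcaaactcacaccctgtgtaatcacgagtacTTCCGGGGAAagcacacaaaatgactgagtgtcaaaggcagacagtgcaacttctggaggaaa
Pla2g7: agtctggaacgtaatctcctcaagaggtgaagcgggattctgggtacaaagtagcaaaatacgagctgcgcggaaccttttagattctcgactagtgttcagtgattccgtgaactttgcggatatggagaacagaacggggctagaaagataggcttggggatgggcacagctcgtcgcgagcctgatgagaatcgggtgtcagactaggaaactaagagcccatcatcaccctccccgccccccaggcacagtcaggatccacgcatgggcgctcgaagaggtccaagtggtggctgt
Only the Ms4a7 sequence of these 3 held a match, a single STAT6 site whose first base lies 13 bases before the start. Among all 32851 listed promoters, 6.95% held the STAT6 site and 3.20% held GAGGAAGT. A match is a description of these letters and not evidence of binding.

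Mrc1 itself did not separate these cells from monocytes. Its level was 1.78, 9.07 and 8.40 CP10K in BMT replicates 1 to 3 and 3.33 in the T cell library. In Mono the corresponding levels were 1.43, 6.87, 6.31 and 7.95, so the groups overlapped and the T cell library was lower than its own Mono. The fitted difference was -0.03 ± 0.42 on the log2 scale of CP10K + 0.1 (SE, adjusted p = 0.976, 3 of 4 libraries higher), and leaving out the T cell library turned it to 0.37. Against ISG monocytes the level was 3.98-fold higher (log2 difference 1.99 ± 0.46, adjusted p = 0.0253) and against MC it was 3.75-fold higher (1.91 ± 0.46, adjusted p = 0.0210), in 3 of 3 libraries each. Without BMT replicate 2 neither passed (adjusted p of 0.359 and 0.294), and without BMT replicate 3 or the T cell library the difference from ISG monocytes did not (0.0506 and 0.0535). In cells with at least 5000 UMIs the adjusted p was 0.08 and 0.0981, and with no replicate block 0.298 and 0.212. Library counts for ISG monocytes and MC cover the 3 libraries that held at least 20 cells of both clusters, without BMT replicate 3. The fitted differences also draw on BMT replicate 3, whose macrophages entered the fit beside its other clusters of at least 20 cells. Hmox1+ monocytes, named for heme oxygenase, had Mrc1 at 4.37 and 10.9 in BMT replicates 1 and 2, above the macrophages, and at 2.31 in the T cell library.

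Ms4a7 was the marker that set the cluster apart most steadily. It stood at 14.8, 10.0 and 7.74 CP10K in BMT replicates 1 to 3, and 17.7 was measured in the T cell library. Mono had 1.89, 2.52, 2.96 and 3.94, and MC had 2.02, 2.81 and 4.09 in the 3 libraries compared, so neither overlapped with the macrophages. The level was 4.26-fold above Mono (log2 difference 2.09 ± 0.25, adjusted p = 3.89e-06, 4 of 4 libraries) and 4.49-fold above MC (2.17 ± 0.27, adjusted p = 2.33e-05, 3 of 3). Without BMT replicate 1 these differences were 1.82 and 1.93, under the threshold of 2 used for a call. ISG monocytes were closest, at 7.42, 7.73 and 8.31, and their difference of 0.75 ± 0.27 did not pass (adjusted p = 0.167).

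Ccl24 and Arg1 varied most between libraries. Ccl24 was at 3.96, 43.7 and 57.9 CP10K in BMT replicates 1 to 3, and 6.67 was measured in the T cell library. Mono reached 9.04, 20.8, 9.82 and 0.191, so BMT replicate 1 had more Ccl24 in Mono than in the macrophages. The differences from Mono (1.75 ± 0.75, adjusted p = 0.175) and from MC (1.90 ± 0.83, adjusted p = 0.219) did not pass, and in cells with at least 5000 UMIs they were -0.45 and -0.17. ISG monocytes, at 0.488, 5.69 and 0.257, were lower in 3 of 3 libraries (3.71 ± 0.83, adjusted p = 0.0254). Leaving out BMT replicate 1, BMT replicate 2 or the T cell library ended this call, with adjusted p of 0.176, 0.411 and 0.0691, as did keeping only cells with at least 5000 UMIs (1.81, adjusted p = 0.339) or fitting no replicate block (adjusted p = 0.404).

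Arg1 was at 1.15, 11.5 and 18.3 CP10K in BMT replicates 1 to 3, and 3.53 was measured in the T cell library. Mono had 0.828, 3.34, 4.25 and 0.465, lower in 4 of 4 libraries, but the difference of 1.73 ± 0.63 did not pass (adjusted p = 0.106). Arg1 was higher than in ISG monocytes by 3.08 ± 0.70 (adjusted p = 0.0253) and than in MC by 3.35 ± 0.70 (adjusted p = 0.00997), in 3 of 3 libraries each. Leaving out BMT replicate 1 or 2 raised the adjusted p to 0.226 and 0.441 against ISG monocytes and to 0.0792 and 0.293 against MC. In cells with at least 5000 UMIs both calls were lost (2.29, adjusted p = 0.179, and 2.22, adjusted p = 0.130), as with no replicate block (0.240 and 0.120). Hmox1+ monocytes held more Arg1 than the macrophages in each library with at least 20 of them, at 4.12, 40.0 and 22.1. Pla2g7 was at 10.5, 6.15, 2.32 and 4.06 in the order of the libraries above, and none of its differences passed (from Mono 0.35 ± 0.26, ISG monocytes 0.87 ± 0.29 and MC 0.85 ± 0.29).

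**Figure D1:**
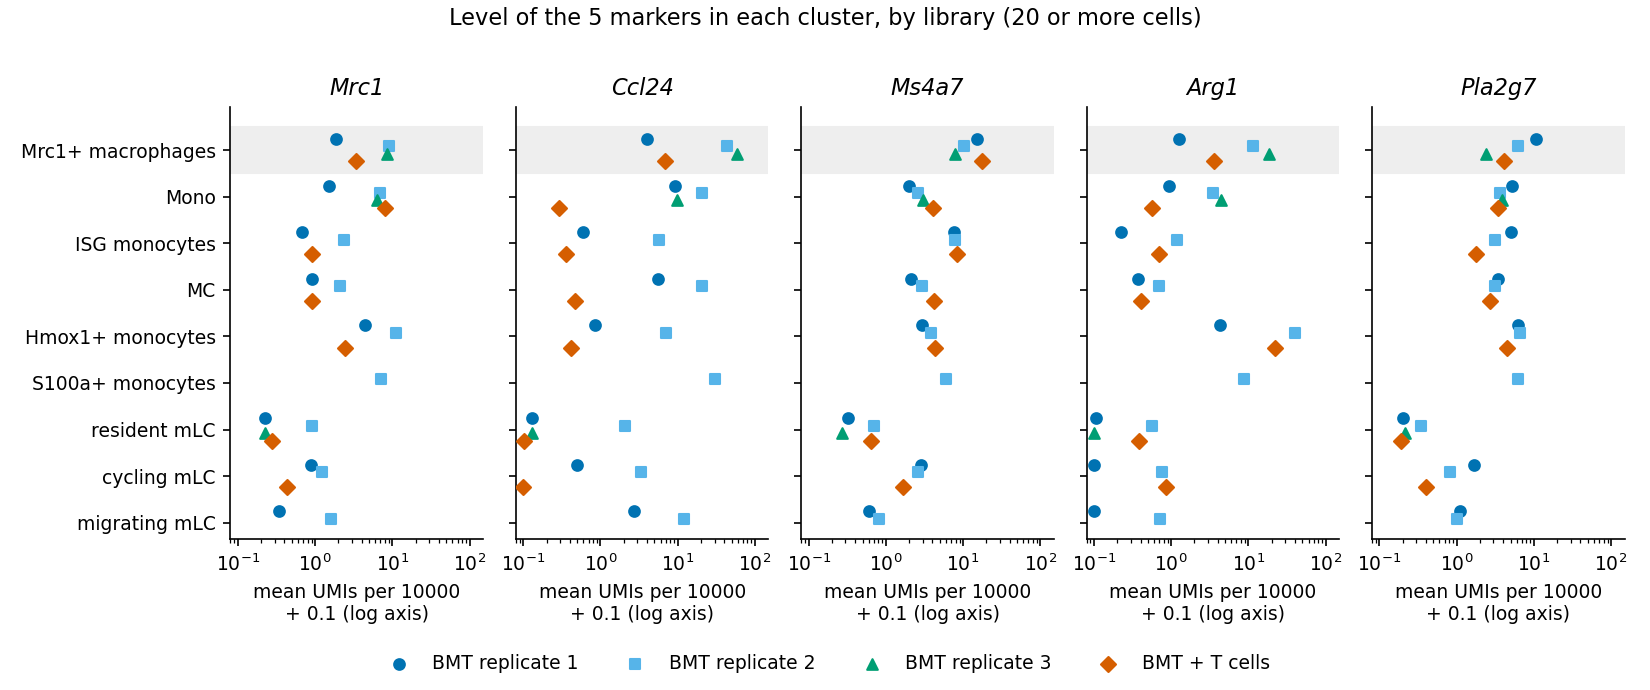
Level of the 5 markers, as mean UMIs per 10000 plus 0.1 on a log axis, in each annotated cluster (rows), with 1 point for each library that held at least 20 cells. Ms4a7 in the shaded Mrc1+ macrophages, at 7.74 to 17.7 CP10K, lies above Mono in every library, while Mrc1 overlaps with Mono and Arg1 is highest in Hmox1+ monocytes.

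By the data the cluster is thus not the one with most Arg1. Its Mrc1 was below that of Hmox1+ monocytes in BMT replicates 1 and 2 and above it in the T cell library, which was not tested. Over the 8 other clusters, the smallest fitted difference of a gene shows whether it stood above all of them. It was 1.27 for Ccl24 (against S100a+ monocytes), which led the 7267 genes over all cells. Ccl24 was below Mono in BMT replicate 1 and turned below Mono and MC in cells with at least 5000 UMIs. The smallest difference was 0.75 for Ms4a7, but -0.13 for Mrc1 and -1.70 for Arg1 (both against Hmox1+ monocytes). It was -0.07 for Pla2g7 (against S100a+ monocytes). S100a+ monocytes entered the fit from BMT replicate 2 alone (594 cells), so the values of Ccl24 and Pla2g7 rest on that library for the other cluster. Tissue macrophage genes varied in level. C1qa, a subunit of complement C1q, stood at 42.2, 31.4, 24.4 and 55.8 CP10K by library, and Csf1r, the receptor of the macrophage growth factor, at 5.43 to 7.26. These levels are given without another cluster, and the list of such genes is compared below. Timd4 had 0 UMIs in all 4 libraries, Folr2 had 1, 1, 0 and 0, and Cd163 had 0, 53, 2 and 0.

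Markers differed in which libraries were high. Mrc1, Ccl24 and Arg1 were high in BMT replicates 2 and 3 and low in BMT replicate 1 and the T cell library. Ms4a7, and C1qa which is no marker of the rule, were highest in those other two libraries, and Pla2g7 followed neither order, with its highest level in BMT replicate 1 and its lowest in BMT replicate 3. Depth moved with this split, since the macrophages of BMT replicates 2 and 3 had the lower median UMI counts. Among cells with at least 5000 UMIs (293, 1264, 14 and 50 by library) Ccl24 remained at 34.1 and 61.5 in BMT replicates 2 and 3 against 5.22 in replicate 1 and 0.178 in the T cell library. Arg1 in these deeper cells was 1.42, 9.26, 26.5 and 0.826, and Mrc1 was 1.81, 6.49, 6.44 and 1.94. Ms4a7 was 16.9, 13.2, 13 and 20.5 and C1qa 52.6, 40.7, 43.1 and 68.6, so for these 5 genes the libraries that were high over all cells were also high among deeper cells. Ccl24 of the T cell library, at 6.67 over all 73 cells, came almost wholly from the shallower ones.

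**Figure D2:**
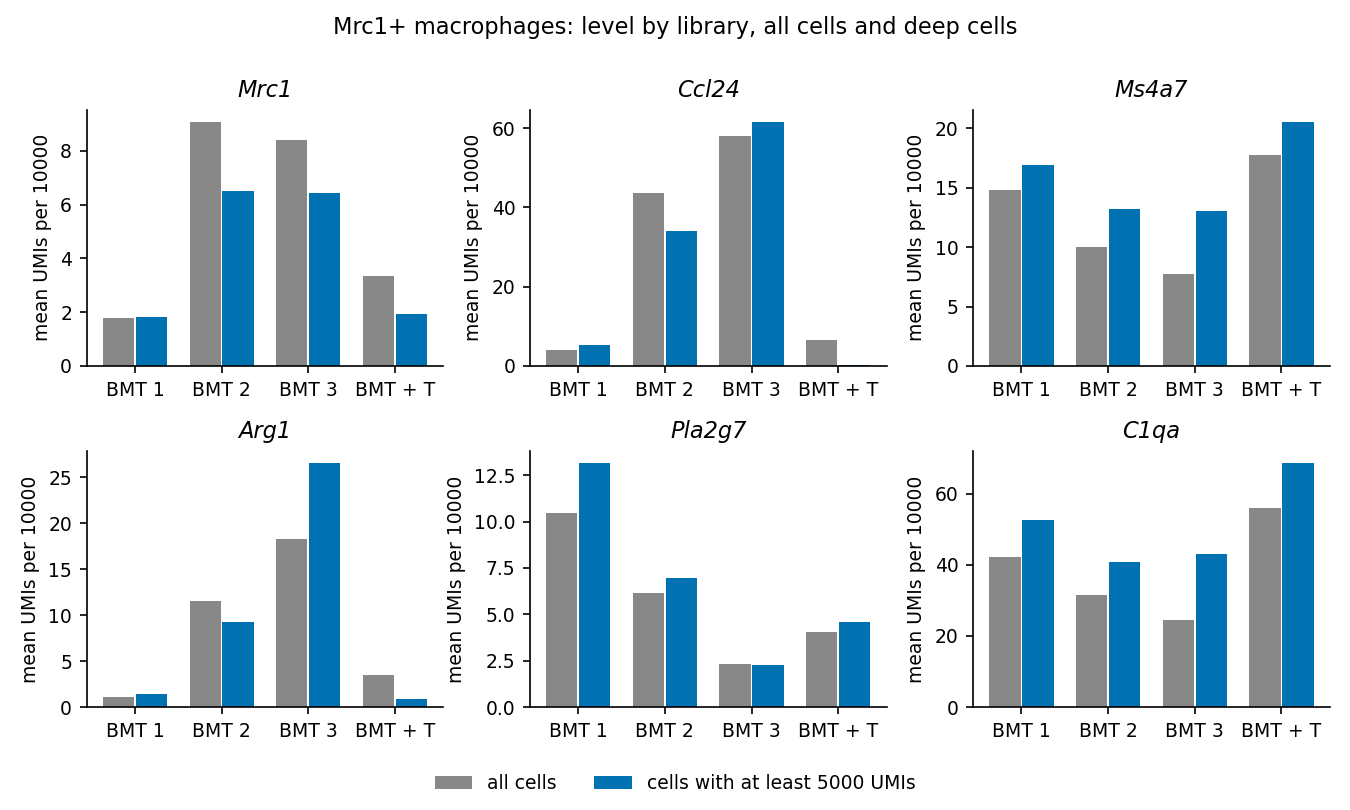
Mean UMIs per 10000 in Mrc1+ macrophages by library, for all cells (grey) and for cells with at least 5000 UMIs (blue). The bars of Mrc1, Ccl24 and Arg1 are tall in BMT replicates 2 and 3 and those of Ms4a7 and C1qa in BMT replicate 1 and the T cell library, in both sets of cells.

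The share of cells with a UMI gives the same markers cell by cell. After every cell was thinned to 2000 UMIs, which left out 572 of the 3123 cells, Ms4a7 was found in 85.1, 70.0 and 78.3% of Mrc1+ macrophages in BMT replicates 1 to 3 and in 91.7% in the T cell library. Its exact 95% intervals ran from 80.9 to 88.7%, 68.0 to 72%, 56.3 to 92.5% and 81.6 to 97.2%. In Mono the shares were 20.8 to 33.3%, and in resident monocyte-derived Langerhans cells (mLC) of the same libraries 1.16 to 7.54%. Mrc1 was found in 24.6, 56, 52.2 and 36.7% of the macrophages, against 17.5, 49.5, 51.9 and 49.1% of Mono.

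Ccl24 was found in 17.0, 59.9, 47.8 and 5.0% of the macrophages, and Arg1 in 8.48, 37.6, 43.5 and 10.0%. The 3 cells of 60 with Ccl24 in the T cell library have an interval of 1.04 to 13.9%, and resident mLC had 0 of 275 there, with an upper bound of 1.33%. Resident mLC of BMT replicate 2 had Ccl24 in 12.2% and Arg1 in 3.11% of cells, against 59.9 and 37.6% of the macrophages. Pla2g7 was found in 78.4, 56.1, 43.5 and 48.3% of the macrophages. In the 5426 keratinocytes of the same series Mrc1, Ccl24 and Ms4a7 had no UMI at this depth (upper bounds 0.130 and 0.142% by library), and Pla2g7 was found in 0.917 and 0.927% of cells. Unthinned shares averaged 64.2% for Mrc1, since deeper cells show more genes. Intervals cover counting error only.

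**Figure D3:**
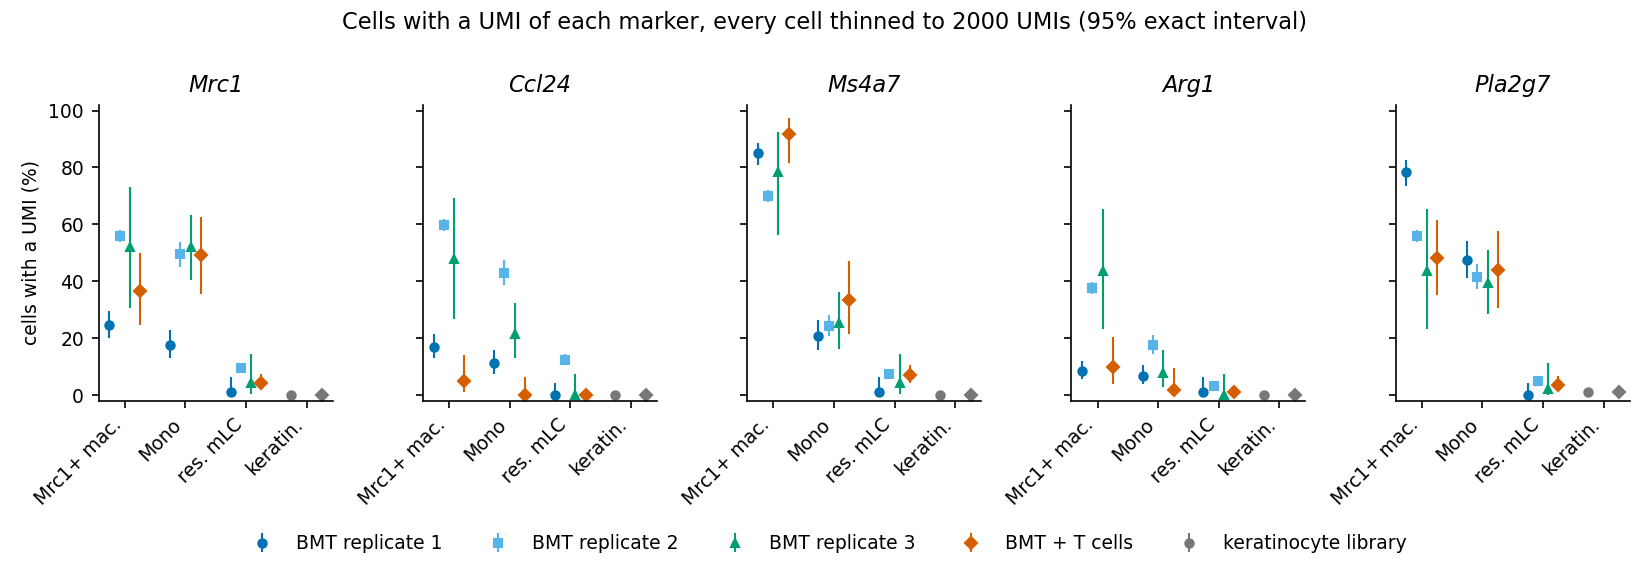
Percent of cells with at least 1 UMI of each marker after thinning to 2000 UMIs, with exact 95% intervals, in Mrc1+ macrophages, Mono, resident mLC and keratinocytes, 1 point for each library. Ms4a7 lies between 70.0 and 91.7% in the macrophages and at or under 33.3% in Mono, resident mLC and keratinocytes. The Mrc1 shares of macrophages and Mono overlap. Shares were not computed for the other clusters, among them ISG monocytes, which were closest in Ms4a7 level.

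Within libraries, Ccl24 and Arg1 went together across the macrophages. Their Spearman coefficient at 2000 UMIs was 0.36, 0.47 and 0.86 in BMT replicates 1 to 3 (342, 2126 and 23 cells). It was 0.70 in the T cell library (60 cells), and the mean was 0.60 ± 0.22 (SD, n = 4). The value of the T cell library rests on few cells, since 3 of the 60 had Ccl24 and 6 had Arg1. At 4000 UMIs 0 of its 51 cells had Ccl24, so that library had no coefficient. Ccl24 and Ms4a7 had negative coefficients in each library, from -0.27 to -0.13, as had Arg1 and Ms4a7, from -0.25 to -0.06. Without thinning, which leaves the depth of the cells unequal, the mean coefficients of these pairs were 0.0657 and 0.0349, so their sign depended on thinning. Thinned to 4000 UMIs, Ccl24 with Ms4a7 had -0.04, -0.16 and -0.23 in BMT replicates 1 to 3. At that depth Arg1 with Ms4a7 had -0.05, -0.15 and -0.22 there and -0.36 in the T cell library. Mrc1 with Arg1 ran from 0.00 to 0.61 and Mrc1 with Ccl24 from -0.03 to 0.36. The cells of a coefficient share a library and a depth, and the counts are sparse, and the values of weak pairs carry little information.

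Across the 7267 genes tested against Mono, Mrc1+ macrophages had 16 genes higher and 14 lower by over 4-fold with an adjusted p under 0.05, which is 0.22 and 0.193% of all genes. The mean of the deposited log values gave 5 higher and 7 lower instead. In that alternative the conversion to log2 was applied again to converted values, so its cutoff was below 4-fold. Without the fold limit 267 were higher (3.67%) and 304 lower (4.18%). Clusters were annotated on these same values, so the counts and p-values of this and the next comparisons are a description of the annotated groups. The comparison asks how the macrophage state differs from the monocytes that enter the epidermis. H2-M2, a class Ib MHC gene, led the higher genes at 6.45, 3.32, 1.19 and 3.46 CP10K against 0.333, 0.273, 0.0589 and 0.107 in Mono (log2 difference 3.56 ± 0.35).

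Mmp13 and Spp1 were next. Mmp13, a collagenase, stood at 1.66, 8.50, 0.564 and 1.77 CP10K against 0.0465, 0.676, 0 and 0.182 in Mono (3.13 ± 0.32, adjusted p = 4.28e-07, 4 of 4 libraries). Spp1, which encodes osteopontin, was at 2.29, 2.72, 1.39 and 7.56 against 0.649, 0.354, 0.142 and 0.0983 (3.05 ± 0.46, adjusted p = 0.000410). Mmp12, macrophage elastase, differed by 2.48 ± 0.25, and Ctsk, the collagen-degrading cathepsin K, by 2.47 ± 0.53, although Ctsk had 0 UMIs in the macrophages of BMT replicate 3. Mfge8, a bridge to dying cells, Slc36a2, an amino acid transporter, Zmynd15 and Pxdc1 rose by 2.43, 2.42, 2.40 and 2.27. Mfge8 lost its call without BMT replicate 1, BMT replicate 2 or the T cell library (adjusted p of 0.135, 0.254 and 0.0659), and Pxdc1 without the T cell library (log2 difference 1.77).

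Of the 14 genes called lower, 9 were on the classical monocyte list. Plac8 was at 0.255, 1.07, 1.72 and 0.245 CP10K against 19.8, 24.3, 13.8 and 5.38 in Mono (-4.28 ± 0.41, adjusted p = 8.22e-07, lower in 4 of 4 libraries). Ly6c2, which encodes the Ly6C antigen of inflammatory monocytes, was at 1.24, 1.59, 1.45 and 0.526 against 12.8, 14.2, 8.69 and 4.07 (-2.90 ± 0.27). Groups did not overlap for either gene. Lyz1, a lysozyme, differed by -3.72, Hp, haptoglobin, by -3.18, Ifitm6 by -3.11 and Ifitm3 by -2.73, and Gm9733 and Ly6a2 by -3.52 and -3.10. Of the 19 classical monocyte genes tested, 14 were lower at the adjusted p and 0 higher, with a median difference of -1.95 against 0.03 for all genes. Against ISG monocytes 4 were lower and 0 higher, and against MC 4 were higher and 0 lower.

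Interferon-stimulated genes were among those lower in the macrophages than in ISG monocytes, and made up 9 of the 20 called. Of 7267 genes 4 were higher in the macrophages by over 4-fold (0.055%) and 20 lower (0.275%), and 50 (0.688%) and 115 (1.58%) at the adjusted p alone. The mean of the deposited log values, at its cutoff below 4-fold, gave 0 higher and 7 lower. Summed UMIs with limma-voom gave 23 and 34. The 4 were Ccl24 and Arg1 with the values above, Ctsk (2.33 ± 0.59, adjusted p = 0.0384) and Fn1, fibronectin, at 1.76, 7.07 and 2.72 CP10K against 0.268, 1.00 and 1.17 (2.15 ± 0.37, adjusted p = 0.00194). Without BMT replicate 2 none of these 4 was called (adjusted p from 0.153 for Fn1 to 0.483 for Ctsk), and the count of all calls went from 24 to 6. Ctsk also lost its call without BMT replicate 1 or the T cell library (adjusted p of 0.304 and 0.213). With no replicate block neither Fn1 nor Ctsk was called (adjusted p of 0.240 and 0.217). Fn1 lost its call in cells with at least 5000 UMIs (1.56, adjusted p = 0.390). Ctsk lost its call in cells with at least 500 genes and at most 20% mitochondrial UMIs (adjusted p = 0.0587). Ifit2, Ifit3 and Ifit1, which encode antiviral RNA-binding proteins, differed by -3.08, -2.71 and -2.58, Isg15, a ubiquitin-like protein, by -2.59, and the antiviral enzymes Rsad2 and Cmpk2 by -2.66 and -2.45. Isg15 stood at 1.92, 1.29 and 1.67 against 9.33, 8.13 and 11.5. Ifit1bl1 and Kctd14 were also lower, with -2.84 and -2.54. Without BMT replicate 2 the calls of Ifit1, Ifit2, Ifit3, Isg15 and Kctd14 were lost, at an adjusted p of 0.114 to 0.240. Of 20 interferon-stimulated genes tested, 15 were lower and 0 higher (median -1.91 against 0.04 for all genes). Against Mono 6 were lower and 0 higher (median -0.73), and against MC 1 was higher and 0 lower (median 0.24).

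Against MC, Lgmn, C5ar1, C3ar1 and Mmp13 were among the higher genes and Epcam among the lower. Of 7267 genes 19 were higher by over 4-fold (0.261%) and 8 lower (0.11%), and 206 (2.83%) and 153 (2.11%) at the adjusted p alone. The mean of the deposited log values, at its cutoff below 4-fold, gave 3 higher and 2 lower. Lgmn, an asparaginyl protease of lysosomes, stood at 13.5, 21.9 and 18.7 CP10K against 2.04, 3.02 and 1.86 in MC (2.80 ± 0.28, adjusted p = 1.62e-06). Ctsl, cathepsin L, was at 4.53, 6.11 and 4.42 against 0.373, 0.388 and 1.11 (2.68 ± 0.34). The complement receptors C5ar1 and C3ar1 differed by 2.60 ± 0.27 and 2.50 ± 0.26, Mmp13 by 3.24 ± 0.35 and Ctsk by 2.42 ± 0.59. Apoe, an apolipoprotein of lipid export, was at 1.87, 1.16 and 6.48 against 0.0980, 0.0808 and 0.358 (3.14 ± 0.61), a call lost without BMT replicate 2 (adjusted p = 0.165). The call of Ctsk was lost without BMT replicate 1, BMT replicate 2 or the T cell library (adjusted p of 0.187, 0.241 and 0.213). Macrophages were lower in 3 of 3 libraries for Epcam, the epithelial adhesion molecule of Langerhans cells, at 0.496, 1.20 and 1.06 against 9.60, 8.63 and 12.5 (-3.21 ± 0.38, adjusted p = 3.05e-05). Cldn1, a tight junction protein, differed by -2.44 ± 0.26, Ccl22, a chemokine of dendritic cells, by -2.39 ± 0.40, Aqp3, a water and glycerol channel, by -2.36 ± 0.24, and Kctd14, Il2ra and Ffar4 by -2.74, -2.30 and -2.17. Ccl22 and Il2ra fell short of 4-fold without the T cell library (-1.68 and -1.96), and Ffar4 without BMT replicate 3 (-1.97). Mucl1 differed by -3.58 ± 0.95, with 0.591, 0.523 and 12.0 CP10K in MC, and its call was lost with any 1 of the 4 libraries left out (adjusted p of 0.0501 to 0.172).

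**Figure D4:**
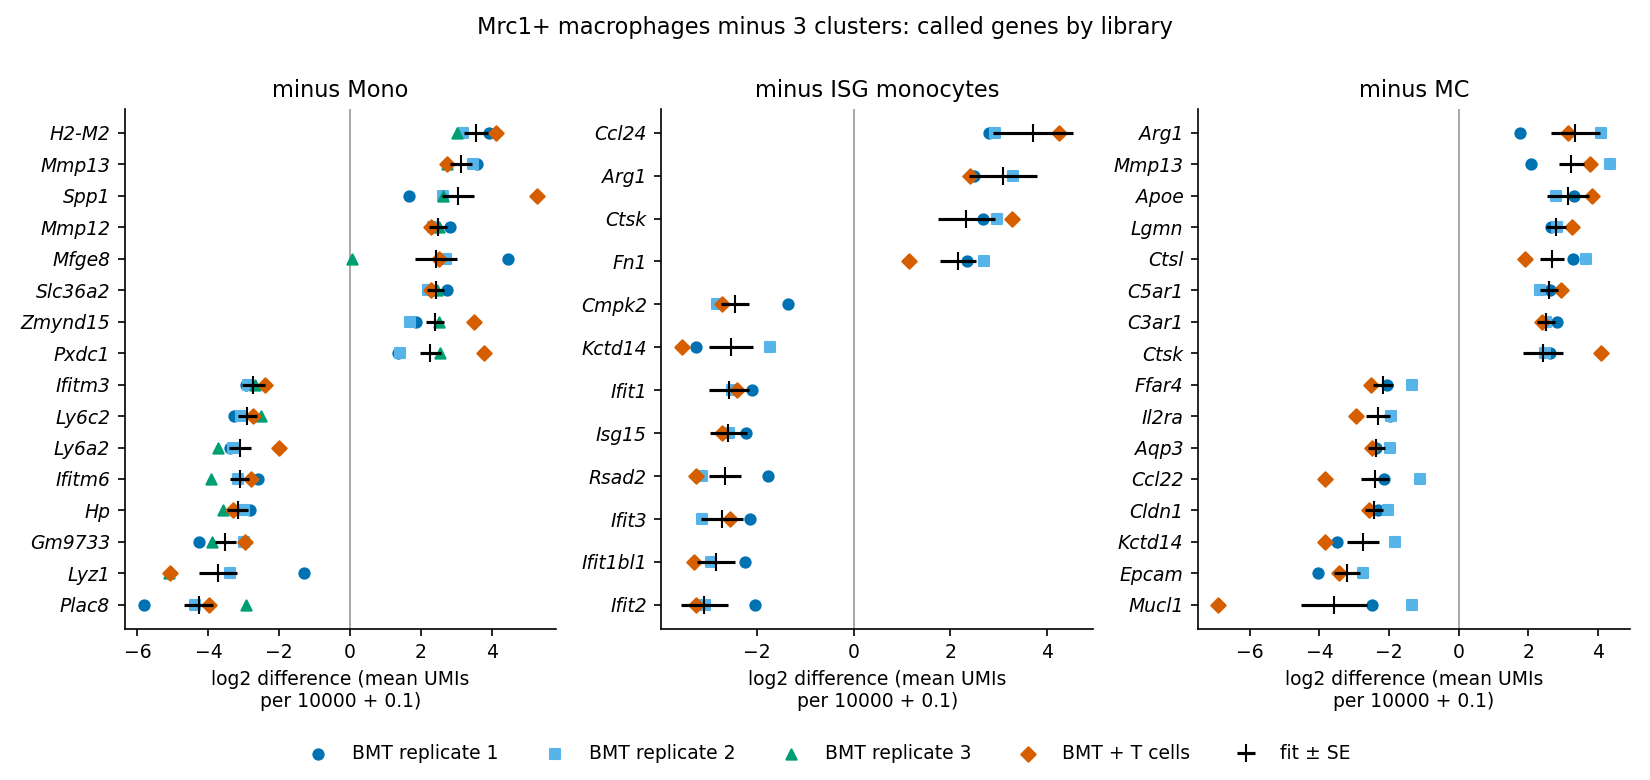
Log2 difference of CP10K + 0.1 between Mrc1+ macrophages and Mono, ISG monocytes or MC for up to 8 called genes in each direction, with 1 point for each library compared and the fit with its SE in black. Only called genes that moved alike in every library compared were drawn, so all points of a gene lie on the same side of 0 by this choice. Against Mono 15 of 16 genes called higher and 13 of 14 called lower moved alike. Mfge8 in BMT replicate 3 lies closest to 0.

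Gene lists describe the state by function. At the adjusted p alone, 3.67% of all genes were higher and 4.18% lower than Mono. The shares were 0.688 and 1.58% against ISG monocytes, and 2.83 and 2.11% against MC. Each list count in this and the next paragraphs stands beside these shares. The arginine and alternative activation list had 1 of 15 tested genes higher and 2 lower than Mono, where Slc7a2, an arginine importer, was higher (2.18 ± 0.39, adjusted p = 0.00138) and Retnla and Clec10a were lower (-2.29 and -1.40). Slc7a2 stood at 4.03, 10.1, 9.69 and 2.35 CP10K against 2.70, 3.04, 0.932 and 0.166. Of the 15, 4 were higher than in ISG monocytes (Ccl24, Arg1, Mrc1 and Slc7a2) and 0 lower, and 4 (Arg1, Chil3, Mrc1 and Il4ra, the interleukin-4 receptor) were higher than in MC. Ccl24, Arg1 and Mrc1 are markers of the cluster, so their part in these counts repeats that choice. The paper also names Chil3 among the genes of its classical monocyte cluster. The 3 lists of tissue macrophage, matrix and lipid genes had 6, 7 and 5 members higher than Mono out of 17, 20 and 20, with 2, 1 and 0 lower, where 3.67% of all genes were higher and 4.18% lower. In the tissue macrophage list the higher genes included Cd63, a lysosomal tetraspanin (1.95 ± 0.22), C1qa (1.54 ± 0.37) and Mertk, a receptor for dying cells (1.36 ± 0.28). The 2 lower genes of that list are counted but not named. Mertk was also higher than in ISG monocytes (1.34 ± 0.31) and MC (2.41 ± 0.31). Against ISG monocytes 2 tissue macrophage genes were higher and 1 lower, and against MC 9 and 0, with medians of 0.92, 0.40 and 1.21 in the 3 comparisons. Lipid genes had 2 and 5 members higher than ISG monocytes and MC, with 0 lower.

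Matrix genes were higher in 3 of 20 against ISG monocytes and 6 of 20 against MC, with 0 lower in both, and their medians were 0.62 and 0.97 against 0.04 and 0.03 for all genes. Pdgfa and Pdgfb, growth factors of fibroblasts, were higher than in Mono by 1.77 and 1.44, and Plau, urokinase, by 1.33. In the lipid list the cholesterol exporter Abca1 passed in all 3 comparisons, by 1.20, 1.66 and 1.69 from Mono, ISG monocytes and MC, and so did Hilpda, a lipid droplet protein, by 1.03, 1.33 and 1.58. Of 15 lysosomal genes, 4 were higher than Mono with 0 lower, 3 higher and 1 lower than ISG monocytes, and 7 higher and 1 lower than MC. The lower gene was Cst3, the cathepsin inhibitor cystatin C, by -1.36 and -1.40. Heme and iron genes had 0, 2 and 3 of 12 members higher and 0 lower, Hmox1 among them against ISG monocytes (1.13) and MC (1.77).

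In each comparison most antigen presentation and Langerhans cell genes did not pass. The shares of all genes higher and lower were 3.67 and 4.18% against Mono, 0.688 and 1.58% against ISG monocytes, and 2.83 and 2.11% against MC. Of 11 MHC class II genes 1 was higher and 1 lower than Mono, 0 and 3 against ISG monocytes, and 0 and 2 against MC. H2-Ab1 was at 152, 137, 107 and 146 CP10K against 128, 95.9, 91.6 and 108 in Mono (0.36 ± 0.11) and at 207, 178 and 209 in ISG monocytes (-0.49 ± 0.12). Of 17 Langerhans cell genes 7 were higher than Mono and 0 lower, Tgfbr1 (1.81), Cd207 (1.58) and Epcam (1.34) among them. Against ISG monocytes 0 were higher and 2 lower, and against MC 0 and 3. The summed level of this list was 22.2 to 35.1 in the macrophages, 10.8 to 20.5 in Mono and 132 to 161 in resident mLC.

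The counts below stand beside 3.67 and 4.18% of all genes higher and lower than Mono, 0.688 and 1.58% against ISG monocytes, and 2.83 and 2.11% against MC, and a single gene of a list is read as no result about the list. Fc and phagocytic receptors had 1 of 15 members higher and 2 lower than Mono, 1 and 0 against ISG monocytes and 6 and 0 against MC, where Clec4d and Clec4e, lectin receptors for microbes, and Fcgr4 rose by 1.66, 1.64 and 1.53. Of 13 chemokine ligands 1 was higher and 1 lower than Mono (Cxcl16 by 1.02 and Ccl7 by -1.92), 1 and 0 against ISG monocytes, and 1 and 1 against MC (Ccl5 by 2.02 and Ccl22). Of 20 transcription factors, Bhlhe40 was higher than Mono (1.19) and Klf2, Maf and Spi1 lower (-1.79, -1.09 and -0.51). Against MC 4 were higher and 0 lower, namely Maf (1.92), Zeb2 (1.62), Nr1h3 (1.59) and Tfec (1.22), and against ISG monocytes 0 and 1. The 13 dendritic and converting cell genes had 2 higher and 0 lower than Mono, 0 and 0 against ISG monocytes and 0 and 3 against MC. The 16 glycolysis and 14 cell cycle genes had 0 that passed in either direction in all 3 comparisons. The hypoxia list had only Hilpda, 1 of 10, in each.

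**Figure D5:**
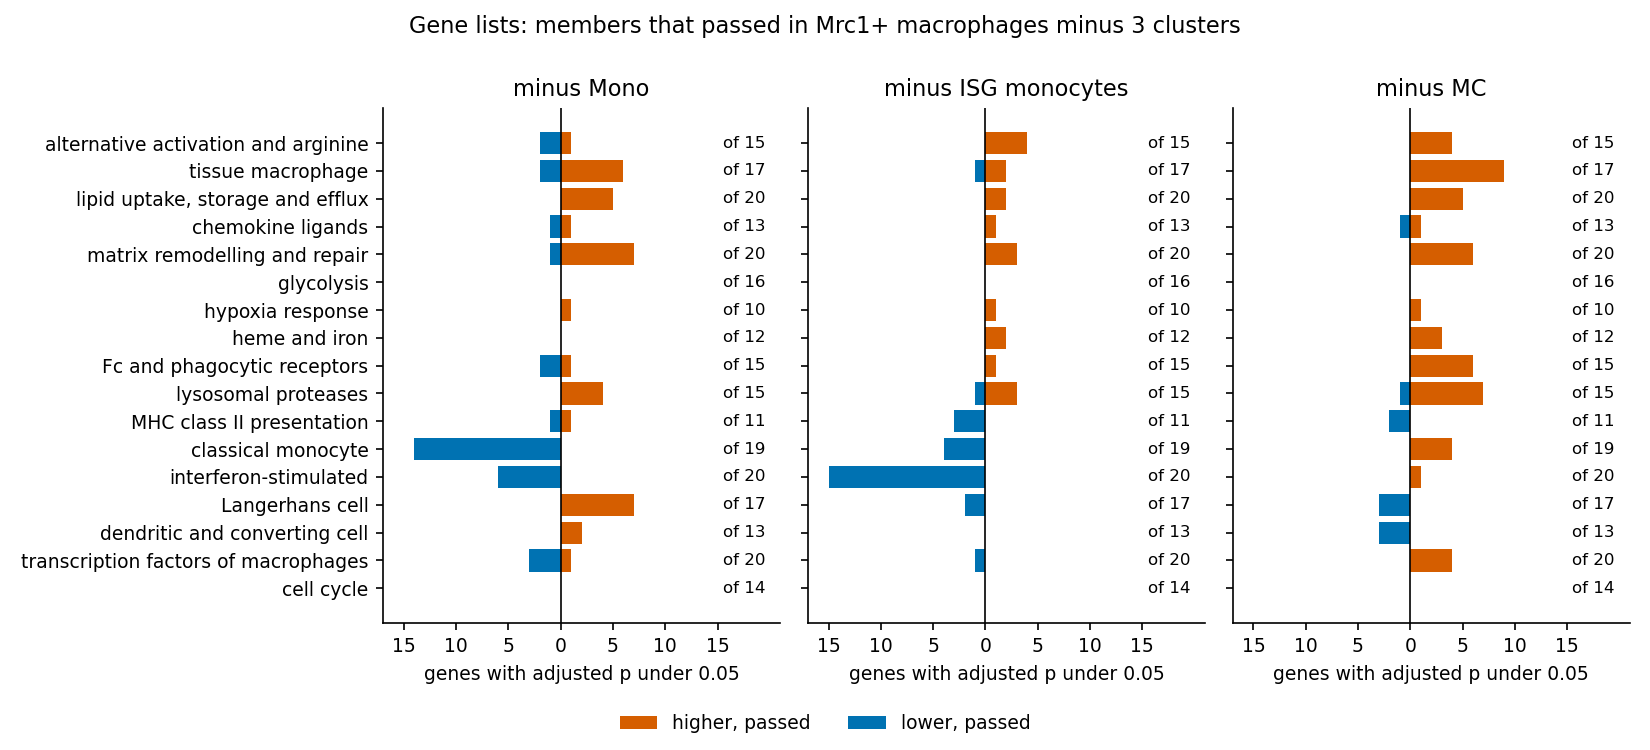
Number of genes of each list with an adjusted p under 0.05 that were higher (right) or lower (left) in Mrc1+ macrophages than in Mono, ISG monocytes and MC, with the number tested at the right. The longest bars are the 14 classical monocyte genes lower than in Mono and the 15 interferon-stimulated genes lower than in ISG monocytes.

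Of 7267 genes 685 had a fitted level in the macrophages above each of the 8 other clusters, only 4 of them by over 1 on the log2 scale, and 37 were higher in each library and cluster compared. The first of those 37 were Olfml3, a secreted olfactomedin protein (smallest difference 1.12), Ms4a14 (1.08), Matk, a kinase that restrains Src kinases (0.94), Slc36a1 (0.83), Slc7a2 (0.80), Itgb5, an integrin subunit (0.77), Ms4a7 (0.75) and Mertk (0.65). Matk was steady at 1.28, 1.49, 2.00 and 1.66 CP10K, and Olfml3 varied from 0.117 to 1.07. The list went on with Hebp1, Abcc3, Kctd18, Tmem37, Ocrl, Naglu and Snx24, at 0.60 to 0.55. Lower than every cluster in each library were 7 genes, led by S100a11 (-0.56 from the nearest) and Map3k8 (-0.45), with the others at -0.30 to -0.01. S100a+ monocytes were the nearest cluster for Olfml3, Slc7a2, Hebp1, Abcc3, Ocrl and Snx24, and entered the fit from BMT replicate 2 alone (594 cells). These differences are a description and were given no test.

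Measures outside the expression table were compared by library. The deposited latent time, which orders cells from 0 to 1 by RNA velocity, had medians of 0.234, 0.269, 0.340 and 0.256 by library. It was below resident mLC in 4 of 4 libraries (mean difference of medians -0.304 ± 0.0583, SD, exact sign-flip permutation p = 0.13, adjusted p = 0.571 over 16 tests), and 0.13 is the smallest p that 4 libraries allow. It was above ISG monocytes (0.0675) and MC (0.0438) in 3 of 3 libraries, where the smallest possible p is 0.25, and did not differ beyond the spread from Mono (0.00703 ± 0.0426, 3 of 4 higher). MC had more UMIs per cell than the macrophages in 3 of 3 libraries (mean difference of medians -4537 ± 1640). None of the 16 tests passed.

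Mrc1+ macrophages made up 15.7, 31.0 and 19.9% of the cells of the BMT libraries, with exact 95% intervals of 14.3 to 17.1%, 30.1 to 32.0% and 14.9 to 25.7%. In the T cell library they made up 10.2% (8.04 to 12.6%). The latter interval did not overlap with those of the BMT libraries. The sort and the annotation set these shares, and with 1 library against 3 no test was made.

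Within the cluster the labels were then compared gene by gene, the only comparison here that the annotation did not use. limma called 0 of 7111 genes (percent called 0) at a 2-fold difference and an adjusted p under 0.05, with 215 genes (3.02%) at an unadjusted p under 0.05. In this fit the single T cell library is assumed to vary like the 3 BMT libraries. The 6 genes with the smallest p were higher in the T cell library, all at an adjusted p of 0.993. Ccl3, a chemokine of inflamed tissue, led at 3.43 CP10K against 0.348, 0.307 and 0.109 in the BMT libraries (3.39 ± 0.56). Tmem119 was at 3.00 against 0.715, 0.591 and 0.632, and Fxyd2, a subunit of the sodium pump, at 3.71 against 0.50, 0.865 and 0.311. Cd207, langerin, was at 1.57 against 0.0498, 0.204 and 0.236, Ighm at 0.738 against 0.00533, 0.0555 and 0.00734, and Gm43936 at 0.782 against 0.0471, 0.00365 and 0.0193. The T cell library lay above all BMT libraries for each of the 6. The 3 B cell markers, Ighm among them, summed to 0.793 there against 0.0163, 0.0922 and 0.0999 in the BMT libraries, and the 17 Langerhans cell genes to 28.4 against 22.2, 33.8 and 35.1. The part of other cells in these values was not tested.

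For the markers the fit leaves differences in either direction open, since the spread of the single T cell library is unknown. Their log2 differences, T cell library minus BMT, were -0.62 ± 0.84 for Mrc1, -1.69 ± 1.28 for Ccl24, 0.75 ± 0.47 for Ms4a7, -0.83 ± 1.26 for Arg1 and -0.38 ± 0.73 for Pla2g7. With the pair of libraries read from their names as a term, a fit with a single residual degree of freedom, 1996 genes were called (909 higher and 1087 lower) in place of 0. Leaving out BMT replicate 3 raised the count of called genes from 0 to 458 (290 higher and 168 lower), leaving out replicate 1 gave 5 and replicate 2 gave 2. BMT replicate 3 supplied 45 cells at the lowest depth, and the part of this in the counts was not tested.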

How the data were processed

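Donor CD11b+MHCII+ cells of mouse epidermis were profiled with the 10x Chromium 5′ kit in 4 libraries, 3 labelled BMT and 1 labelled BMT plus T cells, with 2 keratinocyte libraries as background. The host library was not used. Per the paper's methods and the submitters' processing notes the authors used kallisto, bustools and Seurat (versions not given), removed likely doublets with DoubletFinder and named the Leiden clusters. The notes name GRCm38. No doublet was looked for again. The deposited expression values are natural logs (ln) of 1 plus UMIs per 10000 UMIs of a cell. Undoing the log gave whole UMIs within 0.001 for 100% of values, and the listed genes held a median of 91.3% of a donor cell's UMIs. The deposited mitochondrial column is in percent, the deposited latent time is a fraction, and the deposited UMAP coordinates are a score and were not used.

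CP10K was averaged over the cells of a library in a cluster where there were 20 or more. limma 3.58.1 (R 4.3.3) was run on log2(CP10K + 0.1) for genes whose mean reached 0.1 CP10K (trend, robust prior with statmod 1.5.0, all clusters in the fit, library as a block), with Benjamini-Hochberg adjustment over all genes tested. Cluster calls needed a log2 difference above 2 and label calls above 1, at an adjusted p under 0.05. A second count at the adjusted p alone was added after seeing the data, as were the values in cells with at least 5000 UMIs. Medians per cell were compared by flipping the signs of the library differences in all ways (an exact two-sided permutation test). Shares have exact Clopper-Pearson intervals at 95%, which cover counting error only. Named genes were the 5 markers, up to 8 called genes in each direction that moved alike in every library, up to 5 members of a list, 15 genes by the smallest difference to any cluster and the 6 smallest p between labels; Timd4, Folr2, Cd163, Csf1r and S100a11, and further list members, are named as descriptions. The cluster, its markers and the lists were chosen with earlier results of these data known. Library names pair the donor libraries, but groups share no replicate numbers that pair samples. On simulated data with 200 genes changed by 3 on the log2 scale, limma recovered 99, 99 and 98.5% in the comparisons with Mono, ISG monocytes and MC (7236 genes) and 98.5% between labels (7095 genes), with 0, 0, 0 and 2 unchanged genes called. The simulated libraries had equal noise for every gene and no library effect, and only genes above a set mean level were changed. The shares recovered are thus no measure of power in the real libraries. Alternatives were other pseudocounts, filters and cell minimums, the mean of the deposited log values and limma-voom on summed UMIs. Others were fits without the block or with 2 clusters, and each library left out. The conversion to log2 was applied again to the means of the deposited log values. Tables were made with pandas 2.3.3 and NumPy 2.4.6 in Python 3.11.15, exact tests with SciPy 1.17.1 and plots with matplotlib 3.10.9.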

Additional observations from a re-analysis of the deposited data

Results flagged for a closer look

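Mrc1 was flagged because the Mrc1+ macrophages and Mono differed in opposite directions under the 2 labels. In the 3 BMT libraries the log2 difference, Mrc1+ macrophages minus Mono, lay between 0.30 and 0.41, and in the T cell library it was -1.23. The difference between the labels was not tested.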

How the results depend on the processing

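Against Mono, 30 calls became 78 with a pseudocount of 0.01, 5 with a pseudocount of 1, 12 with the mean of the deposited log values and 92 with limma-voom on summed UMIs. Against MC, 27 became 64, 4, 5 and 99. Against ISG monocytes 24 became 4 (pseudocount of 1), 7 (log means) and 57 (limma-voom). The log means had their conversion to log2 applied again, so their cutoff was below 4-fold. Leaving out 1 library gave 28 to 39 calls against Mono, 6 to 28 against ISG monocytes (6 without BMT replicate 2) and 19 to 26 against MC. Between labels 0 calls became 20 with limma-voom, 2 to 458 with 1 BMT library left out and 1996 (909 higher, 1087 lower) with the pair of libraries, as read from their names, as a term, a fit with a single residual degree of freedom. With no replicate block the counts were 27, 20 and 18. Chosen after seeing the data, cells with at least 5000 UMIs gave 32, 25 and 30 calls, of which 22, 17 and 19 were shared with those of all cells.

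Ccl24 changed direction in cells with at least 5000 UMIs, to -0.45 from Mono and -0.17 from MC. Mrc1 minus Mono became 0.078 in cells with at least 500 genes and at most 20% mitochondrial UMIs, and ran from -0.18 to 0.37 with 1 library left out (0.37 without the T cell library). In those filtered cells latent time minus Mono was -0.00719 and the mitochondrial percent minus Mono -0.219. With 1 library left out these ran from -0.00172 to 0.0282 and from -0.249 to 0.31, the difference from Mono in UMIs per cell from -3250.5 to 758 and in genes from -556 to 123, and the mitochondrial percent minus resident mLC from -0.108 to 0.484. The sign changed without BMT replicate 3. Unthinned, Mrc1 was found in 64.2% of cells, and thinned to 4000 UMIs Ms4a7 in 91.1%. Unthinned coefficients averaged 0.39 (Mrc1 and Ms4a7), 0.30 (Mrc1 and Pla2g7), 0.0657 (Ccl24 and Ms4a7), 0.0349 (Ms4a7 and Arg1), 0.62 (Ms4a7 and Pla2g7) and 0.15 (Arg1 and Pla2g7), so the negative coefficients with Ms4a7 did not hold without thinning. The cause was not tested for any of these. BMT replicate 3 supplied 45 cells with a median of 2214 UMIs, which limits the precision of its values.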
